A study of Mus musculus with 9 samples.

Results

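The genes described here are 10 components of epidermal growth factor (EGF) receptor signaling: the receptors Egfr, Erbb2 and Erbb3, the ligands Hbegf, Areg, Ereg, Tgfa, Btc and Nrg1, and the feedback inhibitor Errfi1. They were taken by symbol from the 40213 gene symbols of the count files, and all 10 were among the 14413 genes with enough counts to be tested. Areg and Tgfa met that limit only through the libraries in which Hif1a or Hif2a was overexpressed. When Hif2a was overexpressed in mouse pre-osteoblasts, 4 of the 10 genes rose, the ligands Areg, Tgfa, Ereg and Hbegf. Of all genes tested, 15.6% were called in this comparison. Without 1 of the control libraries, none of these 4 was called, where 4.67% of all genes tested were. When Hif1a was overexpressed, 1 of the 10 rose, Areg, where 11.3% of all genes tested were called, and this call was lost when any of 8 of the 9 libraries was left out. Of the ligands, Btc and Nrg1 passed the test with neither, and no receptor gene passed it. These calls are from a fit with replicate number as a term. Without that term more of the 10 were called with each virus, among them Erbb3, lower with Hif2a. The share of all genes tested was then 16.5% with Hif1a and 24% with Hif2a. No member differed between Hif1a and Hif2a at an adjusted p under 0.05.

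ErbB receptors are cell surface tyrosine kinases that pair with one another when a ligand binds, and their signal runs through Ras and ERK and through PI3K. Most ligands are made as precursors held in the membrane and are freed by proteases of the ADAM family, so a ligand's mRNA is only the first step of its supply. In bone, EGF receptor signaling is known to sustain osteoblast precursors and to hold back their late differentiation, and amphiregulin, the product of Areg, is known as a gene that osteoblasts induce in response to parathyroid hormone.

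Primary calvarial pre-osteoblasts of wild-type mouse pups, 3 days old, were given one of 3 adenoviruses on culture day 3: a control virus (Ad-C), a virus carrying Hif1a (Ad-Hif1a) or a virus carrying Hif2a (Ad-Hif2a). The study's reporting summary gives ICR as the strain of the pups used for its pre-osteoblasts. All cells stayed in osteogenic medium, which held L-AA (50 μg/ml) together with β-Gp (5 mM), and all were harvested on day 6. The control cells therefore also carried an adenovirus, and the oxygen level was not lowered in any group. Each virus was represented by 3 libraries of total RNA. The study's methods state that its experiments were repeated independently, and the labels do not say which culture each library came from. The p-values measure the spread between these libraries. Hif2a is listed under its symbol Epas1.

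Library totals lay between 14372589 and 18623403 counts. Both targeted genes rose with each virus. Hif1a had 190 ± 3.45 CPM (counts scaled to the library total by TMM; mean ± SD, n = 3, as for all levels below) with Ad-C, 1831 ± 549 with Ad-Hif1a and 536 ± 76.5 with Ad-Hif2a, and Epas1 had 45.9 ± 3.59, 524 ± 140 and 1666 ± 736. Reads of the viral insert and of the cells' own gene cannot be told apart, and Epas1 was above control in the Ad-Hif1a cells as Hif1a was in the Ad-Hif2a cells. Ad-Hif1a replicate 1 and Ad-Hif2a replicate 3 stood apart, with 2.84 and 2.71% of their counts from mitochondrial mRNA against 3.56 to 6.17% in the other 7 libraries. The results that rest on them are given below with and without them.

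The identity of the cells was checked by marker genes. The 12 osteoblast markers summed to between 58410 and 63840 CPM with Ad-C, 52050 and 55040 with Ad-Hif1a and 46140 and 53650 with Ad-Hif2a, and with Ad-Hif2a 6 of the 12 fell and 1 rose (4 and 1 with Ad-Hif1a). Most of these sums was Col1a1 and Col1a2, with means of 40530 and 16370 CPM with Ad-C, and neither was called with either virus. Epithelial cells are a well-known source of ErbB ligands. The 9 epithelial markers summed to no more than 4.97 CPM in any library, Krt14 was at 0 in all libraries and Krt8 was at 0 with Ad-C and Ad-Hif1a. None of the 3 epithelial markers tested was called. Of the 10 macrophage markers, 6 fell with each virus and none rose, and their sum went from between 3300 and 3540 CPM with Ad-C to between 1431 and 1600 with Ad-Hif1a and between 1500 and 1778 with Ad-Hif2a. Most of this sum was Lyz2, with means of 2431, 1131 and 1172 CPM in the same order. In these bulk libraries, fewer cells of a type and less RNA per cell cannot be told apart.

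Smaller marker lists also moved. Of 6 mast cell and basophil markers, Cpa3, Mcpt4, Fcer1a and Tpsb2 were at 0 in every library, whereas Mcpt8 rose and took the list's sum from at most 0.673 CPM with Ad-C to between 2.18 and 5.67 with Ad-Hif1a and between 5.89 and 13.7 with Ad-Hif2a. The 7 markers of Schwann and neural crest glia, cells that use Erbb3 and Nrg1, summed to between 26.3 and 27.4 CPM with Ad-C, 23.7 and 40.7 with Ad-Hif1a and 23.6 and 55.8 with Ad-Hif2a, and 1 of the 4 tested fell with each virus. The 6 endothelial markers summed to between 4.60 and 5.19, 1.70 and 2.39, and 1.89 and 2.80 CPM in the Ad-C, Ad-Hif1a and Ad-Hif2a libraries. Of the 2 tested, Pecam1 rose and Kdr fell with Ad-Hif2a, and neither was called with Ad-Hif1a. Kdr alone made up most of the Ad-C sum, with a mean of 4.235 CPM. The 8 skeletal muscle markers summed to between 53.2 and 63.9, 9.07 and 11.1, and 4.19 and 8.17 CPM in the same order. Most of the Ad-C sum was Myh1, at 57.7 ± 5.16 CPM, which fell to 2.39 ± 0.658 with Ad-Hif1a and 1.47 ± 0.729 with Ad-Hif2a. Acta1 rose with each virus, and the other of the 3 tested was not called. The part of these lists in the values of the 10 genes was not tested.

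To see how the 10 genes stand to each other in control cells, levels were divided by the length of the longest coding transcript. On this scale Errfi1 was first with 16.9 ± 0.321 CPM per kb, followed by Egfr with 10.1 ± 0.640. Hbegf came next with 6.22 ± 0.346, then Erbb2 with 5.63 ± 0.187, Ereg with 4.46 ± 0.487 and Nrg1 with 1.54 ± 0.172. The receptors and ligands at the lower end were Erbb3 with 0.325 ± 0.0401, Btc with 0.304 ± 0.112, Tgfa with 0.121 ± 0.00293 and Areg with 0.0450 ± 0.0454. Erbb3 and Btc overlapped between libraries and no other neighbors in this order did. The order of the first 2 depended on the transcript used, since Egfr came first with 35.0 CPM per kb when the median transcript length was taken.

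In the Ad-Hif2a cells the ligands Hbegf, Ereg, Areg and Tgfa stood higher in this order than with Ad-C, Nrg1 kept its place and Btc stood 1 place lower. Hbegf, with 17.9 ± 9.64 CPM per kb, and Ereg, with 13.3 ± 5.45, stood next after Errfi1, with 33.7 ± 12.4, and before Egfr, with 8.98 ± 3.03, although Errfi1 and Hbegf, Hbegf and Ereg, and Ereg and Egfr each overlapped. With the median transcript length Egfr, at 31.2 CPM per kb, stood above Hbegf and Ereg. Areg, with 0.608 ± 0.392, and Tgfa, with 0.591 ± 0.203, overlapped each other and by their means stood above Btc and Erbb3. Areg, which reached down to 0.240, also overlapped Btc, which reached up to 0.355 CPM per kb, and Btc overlapped Erbb3. In the Ad-Hif1a cells Errfi1 was first with 28.4 ± 4.32 and Hbegf, Egfr and Ereg, with 10.5 ± 3.06, 9.43 ± 2.25 and 8.73 ± 1.68 CPM per kb, overlapped as neighbors, whereas with the median transcript length Egfr was first with 32.7. Areg was the last of the 10 with Ad-C, and with each of Ad-Hif1a and Ad-Hif2a it was the seventh by the longest transcript and the eighth by the median one.

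**Figure D1:**
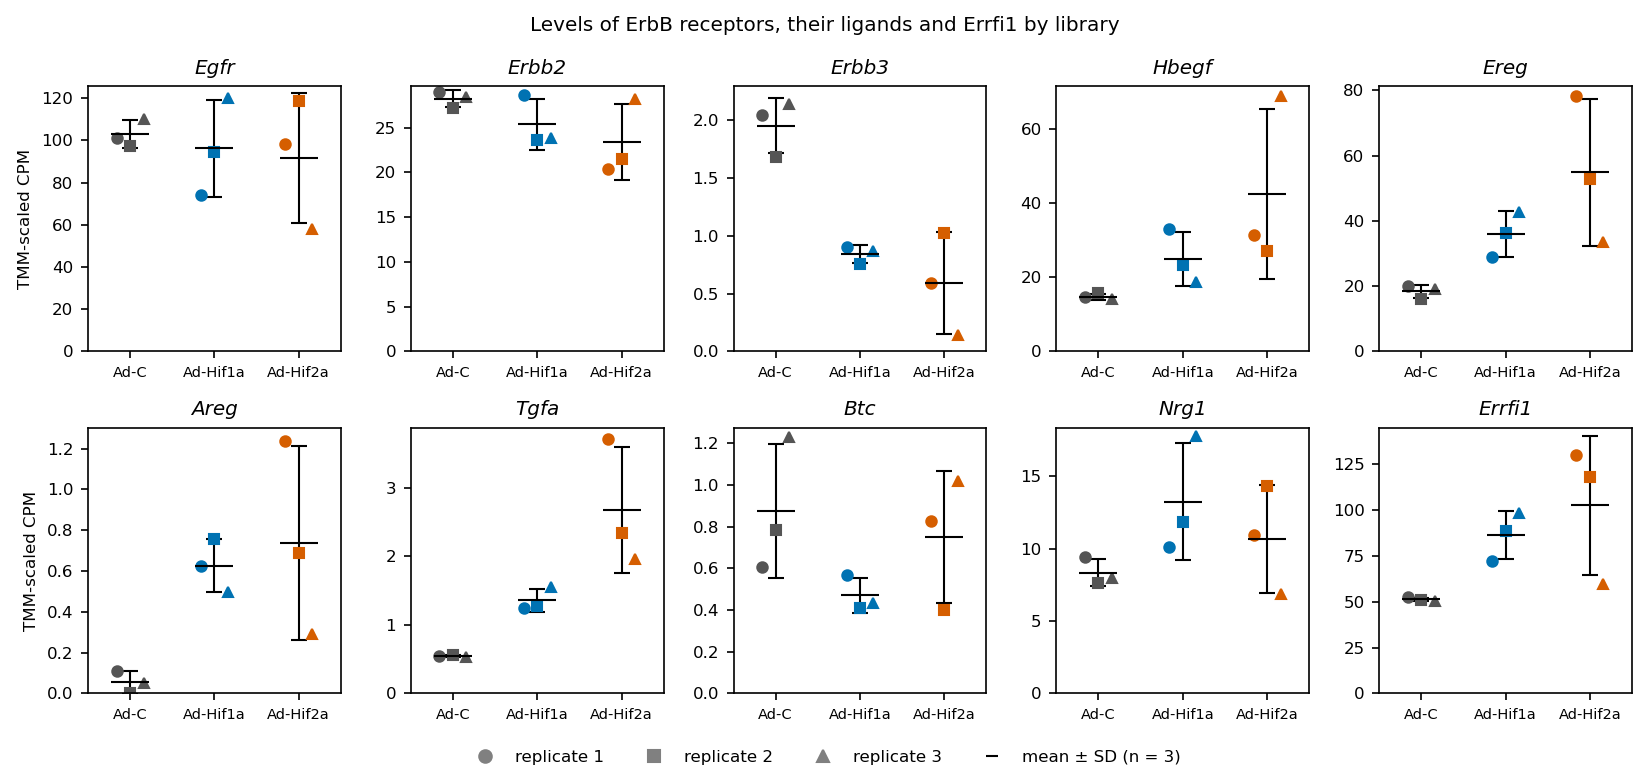
Levels of the 10 genes in each library, as TMM-scaled CPM on linear axes that start at 0, by virus. Points are single libraries with their replicate number as the shape, and bars are the mean ± SD of 3 libraries. Tgfa lay between 0.535 and 0.561 CPM in the Ad-C libraries and between 1.97 and 3.72 in the Ad-Hif2a libraries.

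Over the whole set, 1 of the 10 genes was called with Ad-Hif1a, against 11.3% of all genes tested, and 4 of the 10 were called with Ad-Hif2a, against 15.6% of all genes tested. All 5 calls were higher than control, where 6.04% and 7.87% of all genes were called higher, and 0 of the 10 were called lower, where 5.22% and 7.72% of all genes were. At an unadjusted p under 0.05 the counts were 5 of 10 with Ad-Hif1a and 6 of 10 with Ad-Hif2a, against 26.2% and 33.9% of all genes. Between the 2 viruses 0 of the 10 were called, as for all genes (0%), while at an unadjusted p under 0.05 the count was 1 (Tgfa) against 2.35% of all genes, and DESeq2 called 0 of the 10. The groups did not overlap for 8 of the 10 genes with Ad-Hif1a and 6 of the 10 with Ad-Hif2a, where 50.4% and 49.5% of all genes tested did not overlap, and for 1 of the 10 (Tgfa) between the viruses, against 6.27%. The median log2 fold change of the 10 was 0.71 with Ad-Hif1a and 0.66 with Ad-Hif2a, beside 0.0073 and 0.013 over all genes. The Ad-C libraries are shared by the comparisons with Ad-Hif1a and with Ad-Hif2a. Areg, the only gene called with Ad-Hif1a, and Tgfa passed the filter only through the vector libraries, where they were high. Their part in these counts of calls, of direction and of groups without overlap is therefore not independent of that filter.

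**Figure D2:**
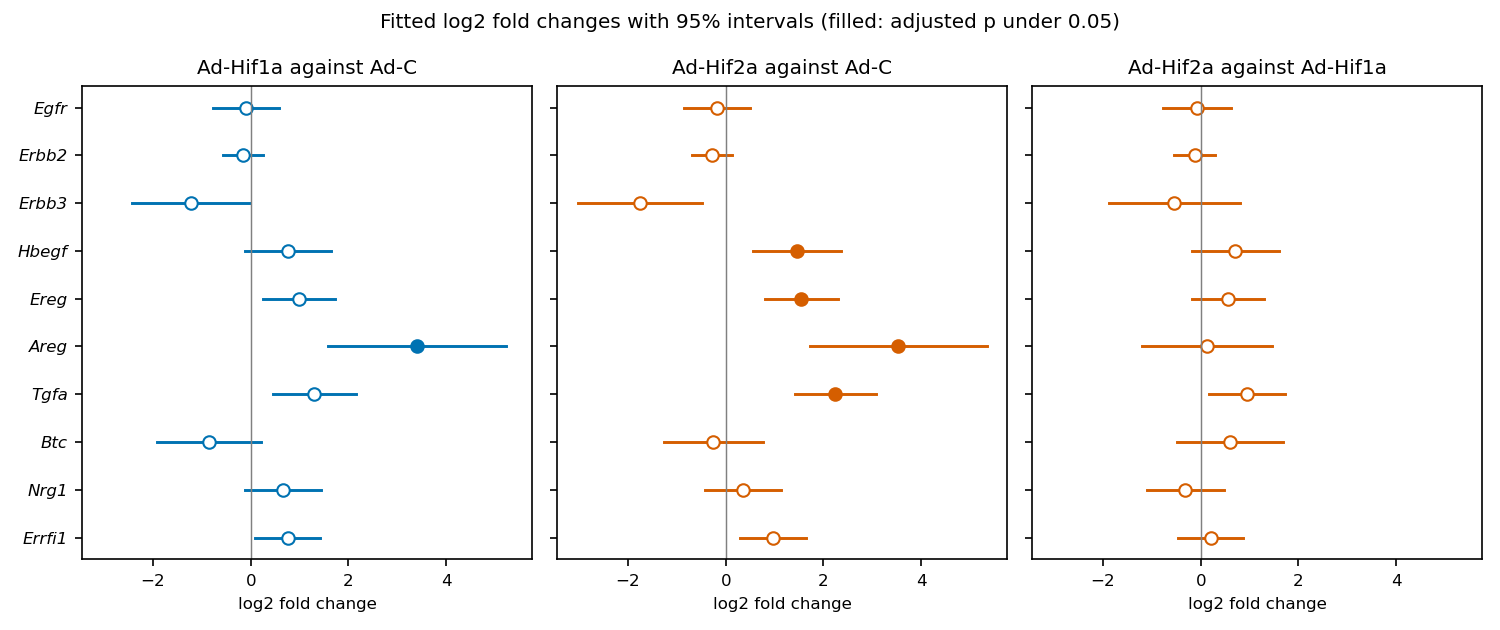
Fitted log2 fold changes of the 10 genes (horizontal axis, the same in each panel) with their 95% intervals, for each virus against Ad-C and for Ad-Hif2a against Ad-Hif1a. Filled points have an adjusted p under 0.05 by edgeR's quasi-likelihood test: Areg with Ad-Hif1a, and Hbegf, Ereg, Areg and Tgfa with Ad-Hif2a.

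Among the receptors, Egfr, which binds EGF, TGF-α, amphiregulin and other ligands, was at 101, 97.5 and 110 CPM in Ad-C replicates 1 to 3. It was at 74.3, 94.5 and 120 CPM with Ad-Hif1a and at 98.3, 119 and 58.0 CPM with Ad-Hif2a. The vector libraries lay on both sides of the control libraries. The log2 fold change was -0.10 (SE 0.29, adjusted p = 0.84) with Ad-Hif1a, with a 95% interval of -0.78 to 0.57, and -0.18 (SE 0.29, adjusted p = 0.671) with Ad-Hif2a, with an interval of -0.86 to 0.50, so neither a rise nor a fall of up to about these sizes can be told from no change. The sign rested on the libraries low in mitochondrial mRNA: it was 0.18 with Ad-Hif2a once replicate 3 of that group was left out, and 0.087 with Ad-Hif1a once replicate 1 of that group was.

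Erbb2, the receptor that binds no ligand itself and serves as the preferred partner of the others, was at 29.0, 27.2 and 28.4 CPM with Ad-C. Its levels were 28.7, 23.7 and 23.8 CPM with Ad-Hif1a and 20.4, 21.6 and 28.3 CPM with Ad-Hif2a. In each vector group, 1 library lay within the control range and the other 2 lay below it. Fitted log2 fold changes were -0.15 (SE 0.18, 95% interval -0.57 to 0.26, adjusted p = 0.603) with Ad-Hif1a and -0.28 (SE 0.18, 95% interval -0.69 to 0.14, adjusted p = 0.293) with Ad-Hif2a. The library within the control range was Ad-Hif1a replicate 1 in the one group and Ad-Hif2a replicate 3 in the other, and without both of them the change with Ad-Hif2a was -0.41 with an adjusted p of 0.038.

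Erbb3 encodes the receptor with little kinase activity of its own, which binds neuregulins and signals through its partners. Its mRNA was scarce, at 37, 30 and 40 counts (2.04, 1.68 and 2.14 CPM) with Ad-C, 16, 13 and 14 counts (0.906, 0.756 and 0.870 CPM) with Ad-Hif1a and 10, 18 and 2 counts (0.590, 1.03 and 0.146 CPM) with Ad-Hif2a. All 6 vector libraries were below all 3 control libraries. The log2 fold change was -1.22 (SE 0.51, 95% interval -2.43 to -0.0099, adjusted p = 0.188) with Ad-Hif1a and -1.76 (SE 0.54, 95% interval -3.03 to -0.48, adjusted p = 0.0711) with Ad-Hif2a, and neither passed the threshold. Summed over libraries, the scaled counts were 0.431 times control (exact 95% counting interval 0.295 to 0.620) with Ad-Hif1a and 0.318 times control (0.205 to 0.481) with Ad-Hif2a, intervals that hold counting error alone and not the spread between libraries. The call with Ad-Hif1a turned on a library outside the groups compared. Without Ad-Hif2a replicate 3 the change was -1.20 (SE 0.35) with an adjusted p of 0.021, so the value hardly moved and the SE fell. In that fit 36.4% of all genes were called with Ad-Hif1a, against 11.3% from all libraries. The same fit gave the other values with Ad-Hif1a that are listed below without that library. With Ad-Hif2a, leaving out Ad-Hif2a replicate 2 gave -2.496 with an adjusted p of 0.0415, and leaving out replicate 3 of that group, the library with 2 counts, gave -1.22 with an adjusted p of 0.0619. Over all alternatives the value with Ad-Hif2a lay between -2.496 and -1.19 and its adjusted p between 0.029 and 0.256.

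Of the ligands, Areg, which encodes amphiregulin, was nearly absent from control cells, with 2, 0 and 1 counts in Ad-C replicates 1 to 3. There were 11, 13 and 8 counts (0.623, 0.756 and 0.497 CPM) with Ad-Hif1a and 21, 12 and 4 counts (1.24, 0.686 and 0.291 CPM) with Ad-Hif2a. Every vector library was above every control library, and the highest and the lowest of the 6 were both Ad-Hif2a libraries. Areg rose with each virus, by a fitted log2 fold change of 3.41 under Ad-Hif1a (SE 0.78, adjusted p = 0.0335) and of 3.54 under Ad-Hif2a (SE 0.77, adjusted p = 0.0228). It had enough counts to be tested only through the vector libraries, where it was high, so these calls are not independent of that filter. With 3 control counts in all, the size of the rise is poorly fixed: the ratio of summed, scaled counts was 11.4 for Ad-Hif1a (exact 95% counting interval 3.58 to 58.4) and 14.0 for Ad-Hif2a (4.43 to 70.9). The 0 counts of Ad-C replicate 2 allow a level of up to 0.168 CPM, the value of 3 counts, which is below the 0.291 CPM of the lowest vector library.

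The call of Areg was not robust to the choice of libraries. With Ad-Hif1a it was lost when any 1 library other than Ad-Hif2a replicate 3 was left out, the adjusted p then lying between 0.0557 and 0.163. With Ad-Hif2a the adjusted p was 0.12, 0.0793 and 0.0887 without Ad-C replicates 1, 2 and 3, 0.0508 without Ad-Hif1a replicate 2, and 0.108 and 0.0599 when replicate 1 or 2 of the Ad-Hif2a group was left out. It was kept without Ad-Hif2a replicate 3, at 3.37 (adjusted p = 0.0058) with Ad-Hif1a and at 3.83 (adjusted p = 0.00499) with Ad-Hif2a. Without Ad-C replicate 2, the library with 0 counts, the log2 fold changes were 2.82 and 2.95, the lowest of all alternatives that could test Areg, and the highest were 3.99 and 4.05.

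Tgfa encodes TGF-α, a ligand that binds Egfr with an affinity like that of EGF. It had 10 counts in each of the 3 Ad-C libraries, or 0.552, 0.561 and 0.535 CPM. It had 22, 22 and 25 counts (1.25, 1.28 and 1.55 CPM) with Ad-Hif1a and 63, 41 and 27 counts (3.72, 2.34 and 1.97 CPM) with Ad-Hif2a. The 3 groups did not overlap, with Ad-C lowest and Ad-Hif2a highest. Tgfa rose with Ad-Hif2a by a log2 fold change of 2.25 (SE 0.36, 95% interval 1.41 to 3.08, adjusted p = 0.00655). Like Areg, it met the filter of the main fit only through the vector libraries, where it was high. This call is therefore not independent of that filter. With Ad-Hif1a the value was 1.302 (SE 0.36, 95% interval 0.45 to 2.15, adjusted p = 0.0637), short of the threshold, and without Ad-Hif2a replicate 3 it was 1.29 with an adjusted p of 0.0167. The difference between the 2 viruses was 0.95 (SE 0.33, 95% interval 0.17 to 1.72), with an unadjusted p of 0.0227 and an adjusted p of 1. The call with Ad-Hif2a was lost when Ad-C replicate 1 was left out (2.12, adjusted p = 0.0614) and was kept when any other library was, with 2.48 (adjusted p = 0.000705) without Ad-Hif2a replicate 3.

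Ereg, which encodes epiregulin, was, like Tgfa, highest in Ad-Hif2a replicate 1. Its levels were 20.0, 16.2 and 19.1 CPM with Ad-C, 28.9, 36.4 and 42.8 CPM with Ad-Hif1a and 78.3, 52.9 and 33.4 CPM with Ad-Hif2a. No vector library reached down to the control range, but the 2 vector groups overlapped. Ereg rose with Ad-Hif2a, by a log2 fold change of 1.55 (SE 0.32, 95% interval 0.80 to 2.29, adjusted p = 0.0183). With Ad-Hif1a the log2 fold change was 0.99 (SE 0.31, 95% interval 0.25 to 1.72, adjusted p = 0.0942), and the difference between the viruses was 0.56 (95% interval -0.18 to 1.296, adjusted p = 1). Without Ad-Hif2a replicate 3 the value with Ad-Hif1a was 0.97 with an adjusted p of 0.00138. The call with Ad-Hif2a was lost without Ad-C replicate 1, 2 or 3 (adjusted p = 0.122, 0.0874 and 0.0817) and without Ad-Hif2a replicate 1 or 2 (0.0755 and 0.0582), and was kept at 1.90 (adjusted p = 3.55e-05) without Ad-Hif2a replicate 3.

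Hbegf encodes heparin-binding EGF-like growth factor, a ligand of Egfr and of Erbb4. Control libraries held 14.6, 15.6 and 14.0 CPM, against 32.9, 23.3 and 18.7 CPM with Ad-Hif1a and 31.5, 27.1 and 68.8 CPM with Ad-Hif2a. Here the library order was turned round, since Ad-Hif2a replicate 3, the lowest of its group for Areg, Ereg and Tgfa, was the highest for Hbegf. Hbegf rose with Ad-Hif2a by 1.46 on the log2 scale (SE 0.38, 95% interval 0.56 to 2.36, adjusted p = 0.0429). That library carried much of the size, at 4.66 times the control mean beside 2.13 and 1.84 times in replicates 1 and 2, and without it the rise was 0.86 (SE 0.18, adjusted p = 0.00516). The value with Ad-Hif1a was 0.76 (SE 0.37, 95% interval -0.12 to 1.64, adjusted p = 0.252), and that between the viruses was 0.70 (95% interval -0.19 to 1.60, adjusted p = 1). The call with Ad-Hif2a was lost without Ad-C replicate 1, 2 or 3 (adjusted p = 0.186, 0.0855 and 0.225), without Ad-Hif1a replicate 2 (0.083) and on leaving out Ad-Hif2a replicate 1 (0.0648). When Ad-Hif2a replicate 3 was left out, the value with Ad-Hif1a was 0.72, with an adjusted p of 0.00459.

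Btc encodes betacellulin, a ligand of Egfr and Erbb4, and was the ligand whose mean lay below control with each virus. It had 11, 14 and 23 counts with Ad-C, 10, 7 and 7 with Ad-Hif1a and 14, 7 and 14 with Ad-Hif2a. In CPM this was 0.607, 0.785 and 1.23, then 0.567, 0.407 and 0.435, then 0.826, 0.400 and 1.02. The Ad-Hif1a libraries lay under the lowest control library, and the Ad-Hif2a libraries spread over and below the control range. Its log2 fold change was -0.85 (SE 0.45, 95% interval -1.91 to 0.20, adjusted p = 0.279) with Ad-Hif1a and -0.25 (SE 0.43, 95% interval -1.27 to 0.76, adjusted p = 0.689) with Ad-Hif2a. Summed over libraries, the scaled counts were 0.536 times control (exact 95% counting interval 0.314 to 0.893) with Ad-Hif1a and 0.827 times control (0.519 to 1.31) with Ad-Hif2a, and with the spread between libraries added, as in the fit, neither difference passed the threshold.

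Nrg1 encodes neuregulin 1, the ligand of Erbb3 and Erbb4, and has many isoforms that counts per symbol do not separate. It was at 9.39, 7.63 and 7.97 CPM with Ad-C, 10.1, 11.9 and 17.8 CPM with Ad-Hif1a and 10.9, 14.3 and 6.85 CPM with Ad-Hif2a. All Ad-Hif1a libraries were above the control range, whereas Ad-Hif2a replicate 3 was below it. The log2 fold change was 0.67 (SE 0.33, 95% interval -0.12 to 1.45, adjusted p = 0.257) with Ad-Hif1a and 0.35 (SE 0.33, 95% interval -0.43 to 1.13, adjusted p = 0.47) with Ad-Hif2a. Without Ad-Hif2a replicate 3 the value with Ad-Hif1a was 0.63 with an adjusted p of 0.0336.

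Errfi1 encodes MIG6, which is induced by EGF receptor signaling and binds the receptor's kinase to shut it off. Its control levels were the tightest of the 10, at 52.5, 51.0 and 50.6 CPM. They were 72.3, 88.8 and 98.2 CPM with Ad-Hif1a and 130, 118 and 59.6 CPM with Ad-Hif2a, so that each vector library was above each control library. The log2 fold change of Errfi1 was 0.76 (SE 0.28, 95% interval 0.098 to 1.43, adjusted p = 0.143) with Ad-Hif1a and 0.97 (SE 0.29, 95% interval 0.30 to 1.64, adjusted p = 0.0619) with Ad-Hif2a. Neither passed the threshold in the main fit, which has replicate number as a term. Without that term, all libraries together gave a call of Errfi1 as higher with Ad-Hif2a and none with Ad-Hif1a. Leaving out Ad-Hif2a replicate 3 gave 0.74 with Ad-Hif1a (adjusted p = 0.00128) and 1.31 with Ad-Hif2a (adjusted p = 7.05e-05), and leaving out Ad-Hif1a replicate 3 gave 0.92 with Ad-Hif2a (adjusted p = 0.0345).

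Ad-Hif1a replicate 1 and Ad-Hif2a replicate 3 shared an arrangement within their groups for all of the 10 genes except Erbb3 and Areg. Erbb3 was highest of its group in the first and lowest in the second, and Areg was lowest only in the second. Each had the highest Erbb2, Hbegf and Btc of its group and the lowest Egfr, Ereg, Tgfa, Nrg1 and Errfi1. Ad-Hif2a replicate 3 was the lowest of its group for 7 genes and the highest for the other 3. The highest Ad-Hif2a library was 2.05 times the lowest for Egfr, 2.18 times for Errfi1, 2.34 times for Ereg, 2.54 times for Hbegf and 4.25 times for Areg, whereas the same ratio with Ad-C was between 1.04 and 1.24 for Egfr, Errfi1, Ereg and Hbegf. Ad-Hif1a replicate 1 and Ad-Hif2a replicate 3 also had the lowest mitochondrial share of their groups. Each had, besides, the least mRNA of the gene its virus carried. Hif1a was at 1240 CPM in Ad-Hif1a replicate 1, where its group had a median of 1930 and a highest value of 2325. Epas1 was at 823 CPM in Ad-Hif2a replicate 3, where its group had a median of 1996 and a highest value of 2181. The parts of RNA quality and of the level of the carried gene in this arrangement were not tested.

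With both libraries left out, 7 of the 10 genes were called in each comparison, against 27.6% of all genes with Ad-Hif1a and 28.7% with Ad-Hif2a. In each comparison Hbegf, Areg, Ereg, Tgfa, Nrg1 and Errfi1 were higher, and the one gene called lower was Erbb3 with Ad-Hif1a and Erbb2 with Ad-Hif2a. In this fit Ereg changed by 1.22 (adjusted p = 3.38e-06) and Errfi1 by 0.90 (adjusted p = 4.5e-05) with Ad-Hif1a on the log2 scale. In the same fit Errfi1 changed by 1.29 (adjusted p = 5.54e-07) with Ad-Hif2a. This leaves 2 libraries in each vector group, which were not chosen without knowledge of the values. They are also the 2 of each group with the most mRNA of the gene its virus carried.

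**Figure D3:**
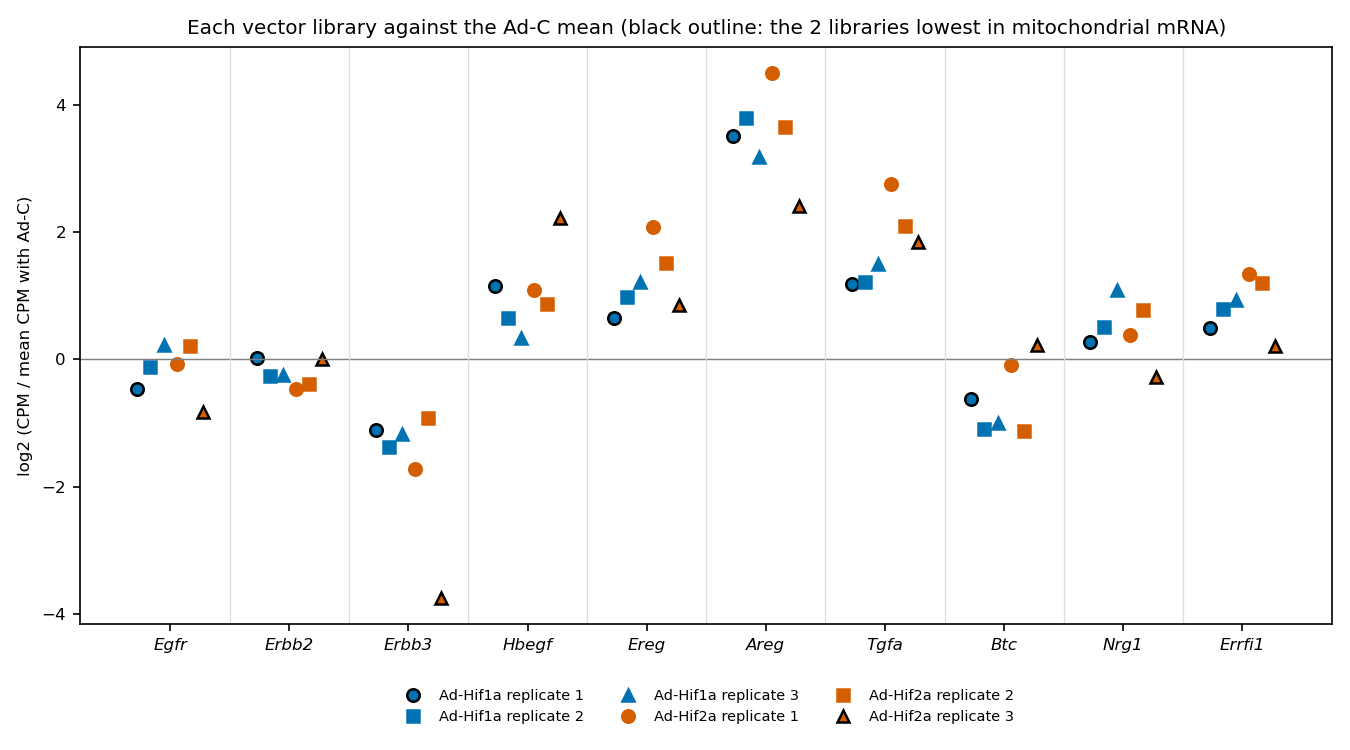
Each vector library's level of the 10 genes as the log2 ratio to the mean of the Ad-C libraries (vertical axis), with color for the virus and shape for the replicate. Points outlined in black are Ad-Hif1a replicate 1 and Ad-Hif2a replicate 3, the lowest of their groups in mitochondrial mRNA: Ad-Hif2a replicate 3 stood at 2.22 for Hbegf, above the rest of its group, and at 0.21 for Errfi1, below it.

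Across the 9 libraries, members moved in blocks. The Pearson correlation of log2 CPM was 0.961 between Ereg and Tgfa, 0.95 between Ereg and Errfi1, 0.914 between Areg and Ereg and 0.896 between Areg and Errfi1. Hbegf followed them less closely, with 0.497 to Ereg and 0.285 to Errfi1. It ran opposite to Erbb3 at -0.94, and Erbb2 ran opposite to Errfi1 at -0.933. These 9 points hold the group differences, the libraries that stand apart and a shared scaling, so the correlations are descriptions.

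The genes nearest to each member over the 9 libraries were found among about 11260 genes with an average log2 CPM over 2. For Tgfa they were Serpinb2, the plasminogen activator inhibitor PAI-2 (r = 0.992), Lif, a cytokine of the IL-6 family (0.99), and Ntaq1 (0.979). For Errfi1 they were Tnfaip3, the NF-kB inhibitor A20 (0.985), Filip1l (0.984) and Gdnf (0.983). The nearest to Ereg were Gsap (0.988), Nr4a2, an orphan nuclear receptor (0.986), and Medag (0.98), and those to Areg were Sptlc2 (0.991), Ptk7 (0.983) and Pdlim1 (0.981). Hbegf had other neighbors, namely Tmem199 (0.993), Laptm4b (0.989) and Rer1 (0.989), the last a protein of the early secretory pathway.

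The nearest to Egfr were Notch2, itself a receptor (r = 0.995), Map1b (0.993) and Cachd1 (0.993), and those to Erbb3 were Ttyh3 (0.988), Col1a2, a chain of type I collagen (0.987), and Smarcc2 (0.984). Erbb2 was nearest to Slc1a6 (0.97), Ptgis (0.97) and Arsi (0.968). Nrg1 was nearest to Plcb1 (0.98), Axl (0.966) and Setdb1 (0.964), and Btc to Bri3bp (0.904), Pcbd1 (0.899) and Brcc3 (0.891). Of all genes searched, 796 had an r over 0.9 with Egfr, 1154 with Hbegf, 191 with Ereg and 1 with Btc.

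Stretches of 250 bases before a RefSeq transcription start (GRCm38.p6) were at hand for 6 of the 10 genes, in 7 windows. They were searched on both strands for the HIF core (ACGTG or GCGTG), the cAMP response element (TGACGTCA), the AP-1 site (TGANTCA) and an NF-kB site (GGG, any 3 bases, then TTCC). Of 32851 such windows of the genome, 38.6% held a HIF core, 1.55% a cAMP response element, 6.75% an AP-1 site and 4.65% an NF-kB site. The windows of Areg and Tgfa, which rose, and the second start of Errfi1 are shown, 5′ to 3′ on the plus strand, with matches in capitals. They lie at chr5:91139349-91139598, chr6:86194972-86195221 and chr4:150854820-150855069.
Areg: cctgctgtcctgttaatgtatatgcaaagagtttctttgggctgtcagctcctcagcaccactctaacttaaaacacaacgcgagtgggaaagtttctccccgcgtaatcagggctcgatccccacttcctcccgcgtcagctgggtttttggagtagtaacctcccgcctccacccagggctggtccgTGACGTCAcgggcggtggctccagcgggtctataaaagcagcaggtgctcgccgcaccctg
Tgfa: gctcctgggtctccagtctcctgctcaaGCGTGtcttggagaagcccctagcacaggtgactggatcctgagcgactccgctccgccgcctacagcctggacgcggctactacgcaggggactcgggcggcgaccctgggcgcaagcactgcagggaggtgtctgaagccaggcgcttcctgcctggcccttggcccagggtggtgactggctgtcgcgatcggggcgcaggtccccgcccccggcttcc
Errfi1: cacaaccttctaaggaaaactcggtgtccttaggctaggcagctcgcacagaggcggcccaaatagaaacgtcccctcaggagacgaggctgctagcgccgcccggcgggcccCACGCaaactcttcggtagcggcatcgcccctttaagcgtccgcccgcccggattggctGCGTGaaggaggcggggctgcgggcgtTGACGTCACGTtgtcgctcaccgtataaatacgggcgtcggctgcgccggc

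The Areg window held a cAMP response element that begins 61 bases before the start, and no HIF core. The Tgfa window held 1 HIF core, 222 bases before the start. The second Errfi1 window held both kinds, a cAMP response element at 51 bases and HIF cores at 137, 78 and 45 bases, of which the last overlaps the cAMP response element. Btc, which did not rise, held 2 HIF cores in its window. The windows of Egfr, of Erbb2 and of the first Errfi1 start had no match to the 4 motifs, and none of the 7 windows matched the AP-1 or NF-kB letters. A match in a window is a run of letters and not a measured site of binding. Windows of Erbb3, Hbegf, Ereg and Nrg1 were not analysed here.

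The remaining members of the receptor and ligand family were all too low to be tested. Erbb4, Egf, Epgn, Nrg2, Nrg3 and Nrg4 had between 0 and 16 counts in any library, and Nrg3 had 0 in all 9. Egf, the ligand that names the family, had 13 counts in the 3 Ad-C libraries together, 36 with Ad-Hif1a and 12 with Ad-Hif2a. Epgn, which encodes epigen, had 18, 18 and 30, and Erbb4, the other receptor for neuregulins, had 5, 6 and 19.

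Genes that act on the ligands or on the receptor were read next, from lists chosen by role, and their counts stand beside the 11.3% and 15.6% of all genes called with Ad-Hif1a and Ad-Hif2a. Of 11 genes for the shedding of ligands from the membrane, 1 was higher with Ad-Hif1a, and 1 was higher and 1 lower with Ad-Hif2a. Rhbdf1, an inactive rhomboid protein that supports ADAM17, rose with Ad-Hif1a from 33.0 ± 3.13 to 58.9 ± 8.51 CPM (log2 fold change 0.85, SE 0.21, adjusted p = 0.0434). Its relative Rhbdf2 rose with Ad-Hif2a from 12.9 ± 1.11 to 22.7 ± 3.11 CPM (log2 fold change 0.82, SE 0.19, adjusted p = 0.0249). Timp3, an inhibitor of ADAM17, fell with Ad-Hif2a from 274 ± 6.21 to 158 ± 37.7 CPM (log2 fold change -0.81, SE 0.20, adjusted p = 0.0356). These 3 genes had changes of the same sign with the other virus, short of the threshold. Rhbdf1 had 0.68 with Ad-Hif2a (adjusted p = 0.07). With Ad-Hif1a, Rhbdf2 had 0.70 (adjusted p = 0.0524) and Timp3 had -0.77 (adjusted p = 0.0512). Adam10, a sheddase, was not called, with log2 fold changes of -0.53 (adjusted p = 0.149) and -0.69 (adjusted p = 0.06) with Ad-Hif1a and Ad-Hif2a. The list's median was 0.034 with Ad-Hif1a and -0.065 with Ad-Hif2a.

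The largest change among the genes for shedding and for receptor turnover belonged to an inhibitor of the receptors. Lrig1, a membrane protein that promotes the degradation of ErbB receptors, was at 10.6, 10.2 and 10.5 CPM with Ad-C, at 64.4, 80.5 and 105 CPM with Ad-Hif1a and at 117, 117 and 44.6 CPM with Ad-Hif2a. Every vector library was well above the control range. On the log2 scale Lrig1 rose by 3.01 with Ad-Hif1a (SE 0.40, adjusted p = 0.00468) and by 3.12 with Ad-Hif2a (SE 0.41, adjusted p = 0.0032). Socs3, a suppressor of cytokine signaling, rose by 2.00 in the first comparison (SE 0.18, adjusted p = 0.000957) and by 2.06 in the second (SE 0.19, adjusted p = 0.000682). Ptpn1, a tyrosine phosphatase that acts on Egfr, rose by 1.06 (adjusted p = 0.00564) and 0.92 (adjusted p = 0.00781). Cav1, the caveolar coat protein, had log2 fold changes of -1.20 (adjusted p = 0.0275) and -1.18 (adjusted p = 0.0236) and so fell with each virus. Of the 17 genes for receptor turnover and inhibition, 3 were higher and 1 lower with Ad-Hif1a and 3 were higher and 2 lower with Ad-Hif2a, with medians of -0.014 and 0.045.

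Of 21 adaptors and components of Ras, ERK and PI3K signaling, 1 was lower with Ad-Hif1a (4.76%, beside 11.3% of all genes), and 1 was higher and 1 lower with Ad-Hif2a (9.52%, beside 15.6%). Gab1, a docking protein, fell with each virus, from 34.5 ± 1.17 CPM to 20.7 ± 0.449 and 20.98 ± 4.21 (log2 fold change -0.73 in both, adjusted p = 0.0355 and 0.0295). Src rose with Ad-Hif2a from 30.5 ± 2.92 to 46.7 ± 0.256 CPM (log2 fold change 0.62, adjusted p = 0.0248), and with Ad-Hif1a it had 0.53 (adjusted p = 0.0507), short of the threshold. Hras, with 0.40 and 0.59, and Braf, with -0.35 and -0.59, were not called, the lowest adjusted p of these being 0.141. The list's medians were -0.12 and -0.16.

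Transcripts that follow ERK activity went in both directions. Of 10 feedback genes, 1 rose and 3 fell with each virus, and the medians were -0.56 and -0.43. Spry2, an inhibitor of receptor tyrosine kinase signaling, rose by 1.07 (adjusted p = 0.00683) with Ad-Hif1a and 0.99 (adjusted p = 0.00761) with Ad-Hif2a. Dusp6, the ERK phosphatase, was lower with log2 fold changes of -1.04 (adjusted p = 0.0078) and -0.87 (adjusted p = 0.0123). The ETS factor Etv5, with -0.82 (adjusted p = 0.00896) and -0.69 (adjusted p = 0.0142), and Spred1, an inhibitor of Ras activation, with -0.73 (adjusted p = 0.0261) and -0.69 (adjusted p = 0.0248), also fell.

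Of 13 genes that growth factors induce early, 5 rose and 2 fell with each virus, and the medians were 0.016 and 0.30. The 2 that fell were Egr1 and Egr3. Egr1 had log2 fold changes of -1.34 (adjusted p = 0.00857) and -1.19 (adjusted p = 0.0109). Egr3, at 3.43 ± 0.338 CPM with Ad-C, had -2.53 (adjusted p = 0.0283) and -3.54 (adjusted p = 0.00916). Ier3 was at 15.0 ± 2.24 CPM with Ad-C, 51.3 ± 0.702 with Ad-Hif1a and 75.5 ± 10.3 with Ad-Hif2a, and rose by 1.78 (adjusted p = 0.00119) and 2.33 (adjusted p = 0.000387). Fosl1, a component of AP-1, was at 8.001 ± 2.10, 17.4 ± 0.986 and 29.5 ± 9.82 CPM, and rose by 1.15 (adjusted p = 0.0335) and 1.87 (adjusted p = 0.00439). Junb, another component of AP-1, rose by 1.55 (adjusted p = 0.00261) and 1.59 (adjusted p = 0.00186), and Phlda1 by 1.03 (adjusted p = 0.0121) and 1.60 (adjusted p = 0.00181). No gene of these lists was called between the viruses. The lists were chosen with earlier results of these data known, so their counts are descriptions, and they rest on the fit of all 9 libraries.

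**Figure D4:**
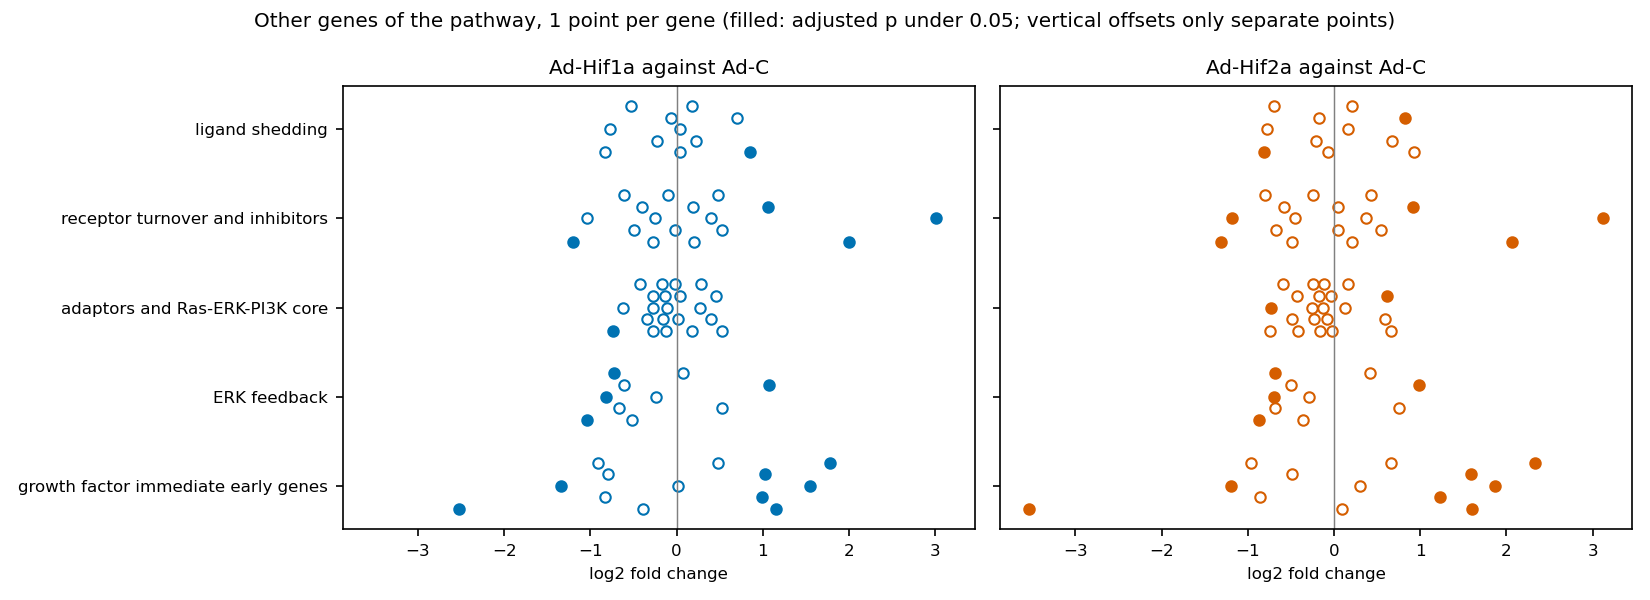
Log2 fold changes of the tested genes in 5 lists of the pathway (horizontal axis, the same in both panels), for Ad-Hif1a and Ad-Hif2a against Ad-C, with 1 point per gene and filled points at an adjusted p under 0.05. The point furthest to the right in each panel is Lrig1, at 3.01 and 3.12, and that furthest to the left is Egr3, at -2.53 and -3.54. The adaptors and core components lie between -0.73 and 0.53 with Ad-Hif1a and between -0.74 and 0.66 with Ad-Hif2a.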

How the data were processed

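The 9 libraries, 3 per virus, were made from total RNA of mouse calvarial pre-osteoblasts in primary culture, with a CORALL kit. The values, as the authors deposited them, are whole-number counts for each gene symbol and were not normalized. The submitters' processing notes name bcl2fastq 2.20.0.422, fastp, STAR, Salmon and GRCm39, without roles. How reads were assigned to genes, and whether strand and molecular identifiers were used, is not given in the sources used here. Gene positions in GRCm39 are not printed, since the annotation at hand is of GRCm38.

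R 4.3.3 and edgeR 4.0.16 were used. Genes kept by filterByExpr (14413) were scaled by TMM (factors 0.957 to 1.03). The robust quasi-likelihood fit took all 9 libraries, with virus and replicate number as terms and 4 residual degrees of freedom, because the study's methods name a paired test. Each virus was compared with Ad-C, and the viruses with each other. Every p-value is two-sided and comes from that edgeR fit if no other tool is named, with Benjamini-Hochberg adjustment over all genes tested and a threshold of 0.05. The words rose and fell are kept for genes past that threshold. Levels are TMM-scaled CPM, and correlations used log2 CPM with a prior count of 2. Counting intervals and the floor of 3 counts hold counting error only. Levels per length used GENCODE M21 transcripts.

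The members and the gene lists were chosen with earlier results of these data known. Named genes are the members, the targeted genes, up to 4 genes per pathway list with the lowest adjusted p, and the 3 genes of an average log2 CPM over 2 nearest to each member. Egr1 and Egr3 are named besides, as the early genes that fell. Markers are named only in part, among them genes that make up most of a list's sum. Alternatives were a fit with virus as the only term, DESeq2 1.42.0, scaling by RLE, by upper quartiles or by totals only, testing of every gene or of those with 10 or more counts in each library, fits of the 6 libraries in a comparison, leaving out 1 library at a time, and leaving out Ad-Hif1a replicate 1 with Ad-Hif2a replicate 3.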

Additional observations from a re-analysis of the deposited data

How the results depend on the processing

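Of 10 members, 1 was called with Ad-Hif1a, and this became 2 with DESeq2, 6 (of 9 tested) when the 6 libraries were fitted alone, and 7 without the pair of Ad-Hif1a replicate 1 and Ad-Hif2a replicate 3, while single libraries left out gave 0 to 7: 7 without Ad-Hif2a replicate 3 and 0 without any other. With Ad-Hif2a the 4 became 7 without the pair and 0 to 5 with single libraries left out: 0 without Ad-C replicate 1, 1 when Ad-C replicate 2 or 3 or Ad-Hif2a replicate 1 was missing, and 2 without Ad-Hif1a replicate 2. Between the viruses it was 0 throughout. RLE, upper-quartile or no factors and no filter left both counts as they were. Under the filter of 10 counts in each library Areg, Erbb3 and Btc could not be tested. The counts were then 1 and 3, beside 9.71% and 13.6% of all genes. The member counts are to be read beside the share of all genes called. With Ad-Hif1a 4706 genes (33.5%) instead of 1624 (11.3%) were called when its 6 libraries were fitted alone, and 14.1% with DESeq2. Without the pair 4022 (27.6%) and 4173 (28.7%) genes were called with Ad-Hif1a and Ad-Hif2a, where all libraries gave 2247 (15.6%) with Ad-Hif2a. Single libraries left out gave 441 to 5330 and 688 to 3309 genes. With Ad-Hif1a this was 36.4% without Ad-Hif2a replicate 3 and 2.99 to 14.8% without any other. With Ad-Hif2a it was 4.67% without Ad-C replicate 1, 5.23 to 7.22% where 1 member was called, and at most 22.6%. DESeq2 called 80 genes between the viruses and edgeR 0, with 338 at an unadjusted p under 0.05. Areg, Erbb3, Tgfa and Btc rest on few counts, which limits what this depth can show of them.

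The replicate numbers showed no pairing of the samples: deviations of same-numbered libraries from their group means correlated between -0.575 and 0.098. They were kept as a term in the main fit, which leaves it 4 residual degrees of freedom. Without the replicate block, 3 members were called with Ad-Hif1a (Areg, Ereg, Tgfa). With Ad-Hif2a 6 were called (Erbb3 lower, and Hbegf, Areg, Ereg, Tgfa and Errfi1 higher). Over all genes this fit called 2379 (16.5%) and 3452 (24%).

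Of the members' log2 fold changes, 17 values changed sign. None of these was called, and the causes were not tested. With single libraries left out, Egfr ranged from -0.43 to 0.087 with Ad-Hif1a and from -0.42 to 0.18 with Ad-Hif2a, and Btc from -0.59 to 0.012 with Ad-Hif2a. Without the pair Egfr was at 0.0049 and 0.17. For the difference between the viruses the ranges with single libraries left out were -0.33 to 0.30 for Egfr, -0.29 to 0.023 for Erbb2, -1.28 to -0.012 for Erbb3, -0.41 to 0.45 for Areg, -0.65 to 0.080 for Nrg1 and -0.056 to 0.57 for Errfi1. Without the pair this difference was 0.16 for Egfr, 0.13 for Erbb3 and -0.12 for Areg. CPM without TMM factors moved each of the 30 group means by less than 1 SD.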
